A study of Oryza sativa with 6 samples.

Results

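The mesocotyl of rice seedlings kept in light for 24 h was compared with that of seedlings kept in light for 60 min, 1 library against 1 library. A locus was measured when it reached 1 FPKM (a level scaled by transcript length and by the fragments of the library) in at least 1 of these libraries, which held for 20562 of 35500 loci in the table. The study sequenced poly(A) RNA from mesocotyls of the indica cultivar P25, with 1 RNA pool and so 1 library per group (6 libraries). Dark-grown seedlings were sampled at 1, 3 and 5 days, and after 5 days in the dark other seedlings received light, which lasted 30 min, 60 min or else 24 h. All groups thus share the cultivar and a start in darkness, and both libraries compared here share the 5 days of darkness. The number of plants in a pool, the colour and strength of the light and the hour of sampling are not given in the labels. No untreated control of the same age as the 24 h seedlings was analysed here, so time in light and an additional day of age cannot be told apart. There are no replicates, so no p-value or error is given, and higher and lower mean a difference of at least 2-fold on the log2(FPKM + 1) scale, a rule of size. That scale understates differences of low loci.

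The mesocotyl lies between the seed and the coleoptile node, lengthens in darkness, and stops lengthening once phytochromes and cryptochromes sense light. These receptors restrain the COP1 and SPA ubiquitin ligase and the PIF factors, and let HY5 and GLK factors act on genes for chlorophyll, light-harvesting proteins and the plastid. Leaves green within hours of such a shift, while much of the mesocotyl remains a non-green conducting axis with a thickening wall.

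Libraries did not line up by time in light. Over 23787 loci with 1 FPKM or more in some library, the correlation of log2(FPKM + 1) between 24 h and 30 min of light was 0.907, and between 24 h and 60 min it was 0.824. The 60 min library correlated at 0.855 with the 1-day dark library, its highest value, at 0.829 with 5 days of darkness and at 0.818 with 30 min of light. These are descriptions across loci, which are not independent and share the annotation and the authors' processing. With 1 library per group, the time in light, the tissue taken and the identity of the 60 min library cannot be told apart, and this holds for every difference below. Because that library stands apart, the lists below are also given with the 30 min library in its place. Summed FPKM was 351188 at 60 min and 351654 at 24 h, and 18569 and 17897 loci reached 1 FPKM. The highest locus took 0.902% of the summed FPKM at 60 min and 2.85% at 24 h.

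Of the measured loci, 2533 were higher at 24 h (12.3%), 3598 were lower (17.5%), 6131 differed in either direction (29.8%) and 14431 lay within 2-fold (70.2%). The median difference was -0.11 on the log2 scale, and the central 90% of loci lay between -2.04 and 1.54. Differences of at least 4-fold were counted at 533 higher and 1069 lower loci, and of at least 16-fold at 49 and 145. Of the higher loci 457 were listed at 0 at 60 min, and of the lower loci 682 were listed at 0 at 24 h. An exact 0 can be a failed estimate in such a table. The 467 loci just inside the measuring threshold, at 1 to 1.1 FPKM, differed by -1.07 to 1.07, and the 335 just outside it, at 0.9 to 1 FPKM, by -1.0 to 1.0.

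**Figure D1:**
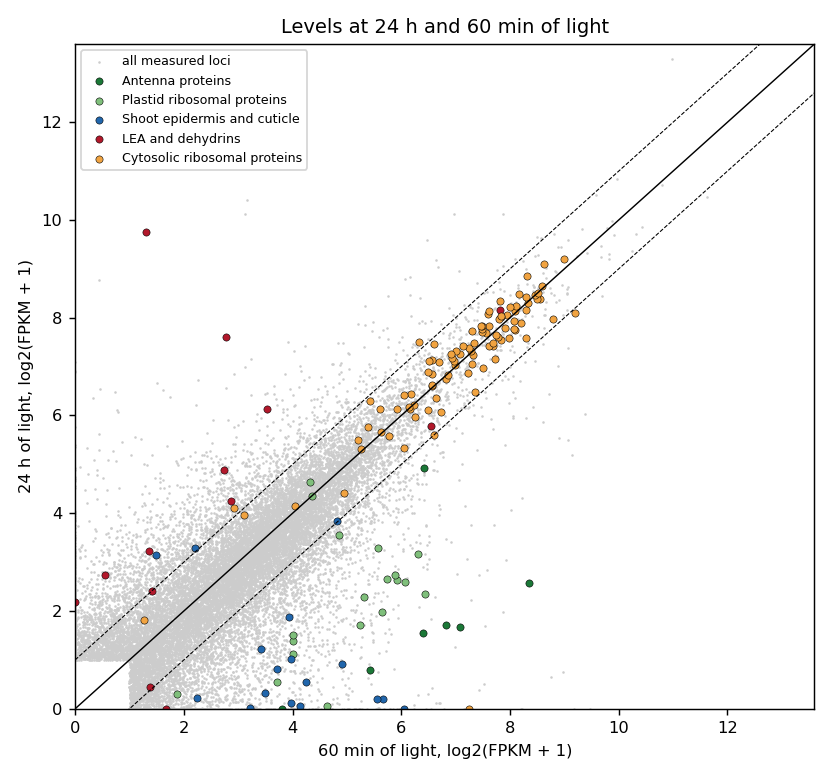
Level of each of 20562 measured loci at 60 min (x axis) and 24 h of light (y axis), both as log2(FPKM + 1). The solid line marks equal levels, the dashed lines 2-fold, and coloured points are members of 5 gene lists. Antenna and most plastid ribosomal protein loci lie far below the lines, cytosolic ribosomal protein loci mostly on the diagonal, and dehydrins and other LEA loci mostly above it.

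Over all 20562 loci, the 24 h value lay within 2-fold of the 30 min value at 17898 (87%). At 2989 of the 3598 lower loci (83.1%) it did so, close to that share, at 496 (13.8%) it was lower than at 30 min too, and at 113 it was higher. The 60 min library lay at least 2-fold above all 5 other libraries at 852 of the lower loci (23.7%), and the 24 h library at least 2-fold below all others at 132 (3.67%). Over all measured loci these were 4.14% and 0.642%, and such loci are lower at 24 h by definition. Among the higher loci, 849 (33.5%) were also higher than at 30 min and 1636 (64.6%) lay within 2-fold of it. The 24 h library stood at least 2-fold above all others at 493 higher loci (19.5%), and the 60 min library at least 2-fold below all others at 113. Over all measured loci these were 2.4% and 0.55%, and such loci are higher at 24 h by definition. Set against 30 min alone, 1481 of 19746 loci were higher at 24 h (7.5%) and 1816 lower (9.2%), with a median of -0.02. Both sets of differences share the 24 h library.

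**Figure D2:**
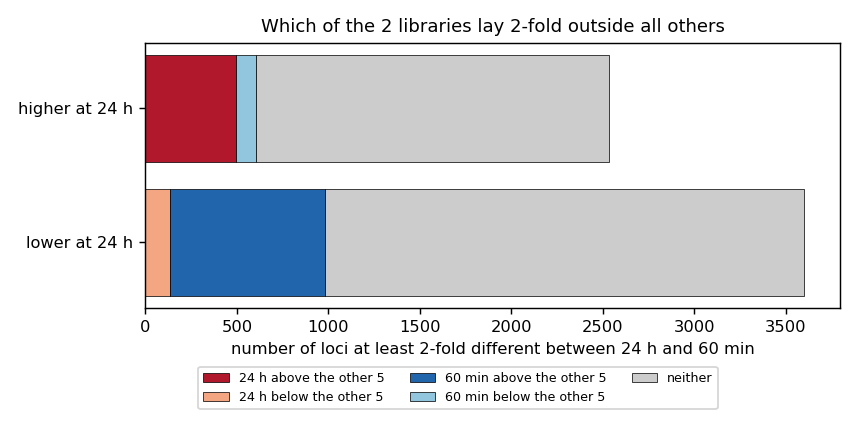
Number of loci at least 2-fold lower (3598) or higher (2533) at 24 h than at 60 min of light, divided by which library lay at least 2-fold outside all 5 others. Among lower loci the 60 min library stood above all others at 852 and the 24 h library below all others at 132. Among higher loci the 24 h library stood above all others at 493.

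Genes of the photosynthetic apparatus were lower at 24 h than at 60 min. All 7 measured antenna loci, which encode the proteins that hold chlorophyll in the light-harvesting complexes, were lower, with a median log2 difference of -4.85, against 17.5% of all loci lower and a median of -0.11. Their summed level was 39.2, 16.4 and 62.6 FPKM at 1, 3 and 5 days of darkness, 24.7 at 30 min, 796 at 60 min and 41.4 at 24 h of light. All 7 were highest in the 60 min library, which in that respect stood apart from every other library. Of 5 antenna loci measured against 30 min, 4 were higher at 24 h and none lower (median 1.62). All 4 were under 1 FPKM at 30 min and were measured only through the 24 h library, so none of them could be lower. The turn in direction with the library used for comparison thus rests on loci kept by that filter. The same limit holds for lists below whose loci were under 1 FPKM at 30 min. Below, single loci are given in the order of 1, 3 and 5 days of darkness, then 30 min, 60 min and 24 h of light.

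The antenna locus with the largest difference, chlorophyll a-b binding protein 2 (ZS01g0462400), stood at 0.152, 0, 4.66, 0.118, 327 and 4.91 FPKM. A further locus for a chlorophyll a-b binding protein, ZS03g0506800, stood at 0.318, 0, 4.22, 0.0279, 135 and 2.17 FPKM. Protein 1B-21 (ZS06g0257900) stood at 0.547, 0, 9.07, 0, 112 and 2.29 FPKM. These 3 loci shared a shape: near 0 at 1 day, 3 days and 30 min, a few FPKM at 5 days of darkness and at 24 h, and over 100 FPKM at 60 min. Chlorophyll a-b binding protein 7, a merged locus (ZS07g0476900 and ZS07g0477000), had the smallest antenna difference, at 37.9, 16.4, 25.1, 24.4, 84.1 and 29.4 FPKM. It was above 15 FPKM in every library.

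Photosystem and electron transport loci showed the same direction, with 15 of 17 lower, 1 higher and a median of -2.51. Against 30 min 5 of 15 were higher and none lower (0.76). Photosystem I subunit III (ZS03g0723800), which docks plastocyanin, stood at 0.981, 0.0473, 26.1, 0.148, 51.6 and 1.26 FPKM. The photosystem II 10 kDa polypeptide (ZS08g0122700) stood at 2.34, 1.45, 27.9, 0.606, 56.8 and 3.1 FPKM. Plastocyanin (ZS06g0010500), the copper protein that carries electrons to photosystem I, stood at 0.712, 0, 0, 0.0958, 42.6 and 2.39 FPKM. Both photosystem loci had their next highest level after 5 days of darkness, while plastocyanin was listed at 0 there. Ferredoxin-1 (ZS08g0011300), which accepts electrons from photosystem I, was among the 15 largest lower differences, at 2.49, 0.188, 87.7, 0.374, 186 and 2.22 FPKM. PsbP domain-containing protein 7 (ZS01g0781800) was level, at 10.3 FPKM at 60 min and 10.4 at 24 h. A photosystem II 47 kDa protein locus (ZS09g0049500) was the higher exception, listed at 0 at 60 min and at 1.2 FPKM at 24 h.

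Calvin cycle enzymes, which fix carbon dioxide in the stroma, were lower at 7 of 8 loci (median -2.84), and against 30 min 1 of 5 was higher and none lower (-0.07). A Rubisco small chain locus (ZS12g0195100) stood at 13.9, 0.142, 125, 0.473, 42.3 and 0.43 FPKM. Its highest level was in the 5-day dark library and its 24 h level was close to that at 30 min. Glyceraldehyde-3-phosphate dehydrogenase A (ZS04g0557100), of the reductive step, stood at 0.527, 0, 40.3, 0.207, 41.3 and 0.874 FPKM, and sedoheptulose-bisphosphatase (ZS04g0233900) at 0.15, 0, 57.8, 0, 16.4 and 0.351 FPKM. Chloroplastic transketolase (ZS06g0044300) did not share this shape, at 94.7, 71.2, 83, 105, 112 and 100 FPKM. Photorespiration, which recycles the product of the oxygenase reaction, was mixed, with 2 of 12 loci higher and 2 lower (median 0.23), and none of 10 passed 2-fold against 30 min (-0.11). A mitochondrial glycine cleavage H protein locus (ZS10g0404200) was at 33.3 FPKM at 60 min and 0.295 at 24 h, while another (ZS02g0075900) was at 53.3 and 167.

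Chlorophyll synthesis was lower at 7 of 10 loci and higher at none (median -2.31). Protochlorophyllide reductase B (ZS10g0390600), the enzyme that needs light to make chlorophyllide, stood at 1.05, 0.307, 15.8, 0, 43.4 and 1.56 FPKM. The merged locus for the magnesium-chelatase subunit ChlH (ZS03g0216600 and ZS03g0216700), at the branch from haem to chlorophyll, stood at 1.23, 0.21, 6.01, 0.402, 34.1 and 1.5 FPKM. The cyclase of magnesium-protoporphyrin monomethyl ester (ZS01g0189000) stood at 1.02, 0.434, 16.2, 0.561, 32.7 and 1.31 FPKM. These 3 loci were thus high in the 60 min library, intermediate after 5 days of darkness, and low in the other 4. Other late steps differed less, chlorophyll synthase (ZS05g0340500) being at 52.1 FPKM at 60 min and at 14.6 to 28.1 elsewhere, and a chlorophyllide a oxygenase-like locus (ZS10g0458100) at 2.54 and 2.17 FPKM at 60 min and 24 h. A pair of earlier steps shared with haem synthesis differed less: uroporphyrinogen decarboxylase 2 (ZS03g0228200) was at 13.5 FPKM at 60 min and 6.6 at 24 h, and glutamate-1-semialdehyde aminomutase (ZS08g0621800) at 4.09 and 3.93. Against 30 min, 1 of 9 loci of this list was higher and none lower (0.26).

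Early light-induced and photoprotective loci were all lower (5 of 5, median -2.10), whereas against 30 min 2 of 3 were higher and none lower (1.29). The high molecular mass early light-inducible protein HV58 (ZS01g0151600), a relative of antenna proteins made on exposure to light, was listed at 0 in all 3 dark libraries and stood at 0.501 FPKM at 30 min, 11.4 at 60 min and 3.84 at 24 h. The low molecular mass protein HV60 (ZS07g0092400) was at or under 0.0349 FPKM in the dark and at 30 min, at 9.46 at 60 min and at 1.44 at 24 h. For these 2 proteins the 24 h level remained above the dark and 30 min levels. Violaxanthin de-epoxidase (ZS04g0449800), which makes the heat-dissipating pigment zeaxanthin, stood instead at 1.13, 0.0415, 17.1, 0.0238, 15.2 and 0.715 FPKM. Carotenoid synthesis was lower at 3 of 8 loci and higher at none (median -0.53), and none of 7 passed 2-fold against 30 min (-0.14). Phytoene synthase 2 (ZS12g0506100), the entry step, stood at 2.36, 0.482, 2.93, 3.6, 25.3 and 5.66 FPKM, whereas zeta-carotene desaturase (ZS07g0123000) was at 26 FPKM at 60 min and 21.8 at 24 h.

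The plastid's own machinery for gene expression followed the photosynthetic loci. Of 19 plastid ribosomal protein loci 17 were lower and none higher (median -3.08), and against 30 min they were higher at 2 of 16 and lower at none (0.41). Their summed level was 120.9, 63.9, 423 and 78.6 FPKM over the dark libraries and 30 min, 721 at 60 min and 110.3 at 24 h. Of the 19, 15 were highest at 60 min. The 30S protein S9 (ZS03g0715800) stood at 8.81, 1.83, 33.3, 2.46, 85.9 and 4.07 FPKM, and a 50S protein L6 locus (ZS03g0693900) at 1.5, 0.0596, 24.9, 0.0686, 23.7 and 0.0397 FPKM. The 2 exceptions were 50S L19 (ZS02g0117500), at 19.4 FPKM in both libraries, and L3-2 (ZS01g0155900), at 18.9 and 23.8.

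Sigma factors, plastid-active chromosome proteins and translation factors, a list chosen after values had been seen, were lower at 8 of 8 loci (median -2.21), and none of 4 passed 2-fold against 30 min (0.23). Chloroplast elongation factor Tu (ZS02g0465900) was at 90.5 FPKM at 60 min and 7.35 at 24 h, and sigma factor F (ZS08g0191700), which directs the plastid polymerase, at 3.87 and 0.225. Thylakoid assembly and import loci, likewise chosen afterwards, were lower at 7 of 12 (median -1.44), and 1 of 12 was higher and none lower against 30 min (0.04). There the TAT translocase subunit TATA (ZS03g0567900) stood at 40.1 FPKM at 60 min and 9.81 at 24 h, but the outer envelope receptors of imported proteins TOC132 (ZS10g0442000) and TOC159 (ZS03g0797200) lay within 2-fold.

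The terms that the authors' deposited table assigns leaned lower for photosynthesis and plastid compartments, but not for every broader pathway. Photosynthesis had 38 of 55 loci lower and 2 higher (median -2.07), and against 30 min none of 42 lower and 10 higher (0.34). Its antenna proteins had 12 of 14 lower and none higher (-4.21), and against 30 min none of 10 lower and 6 higher (1.55). Of 222 loci assigned to the chloroplast thylakoid membrane, 144 were lower and 12 higher (median -1.58), and against 30 min 7 of 168 were lower and 25 higher (0.14). Loci of the chloroplast stroma were lower at 128 of 346 and higher at 21 (-0.63), and against 30 min 18 of 315 were lower and 13 higher (0.04). Loci of the envelope were lower at 130 of 302 and higher at 14 (-0.79), and against 30 min 16 of 267 were lower and 16 higher (0.03). The chlorophyll biosynthetic process had 11 of 17 lower and none higher (-1.77; none of 15 lower and 1 higher against 30 min, -0.1). The broader porphyrin and chlorophyll metabolism had 36 of 119 lower and 21 higher, with a median near that of all loci (-0.16). Both shares were above those of all loci, 17.5% lower and 12.3% higher. Against 30 min 5 of 107 were lower and 11 higher (0.04). Carbon fixation in photosynthetic organisms had 29 of 124 higher and 22 lower (0.19), and carotenoid biosynthesis 10 of 61 higher and 12 lower (-0.17). For contrast, DNA replication had 9 of 116 lower and 3 higher (-0.32), and protein processing in the endoplasmic reticulum 37 of 383 lower and 30 higher (0.02).

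**Figure D3:**
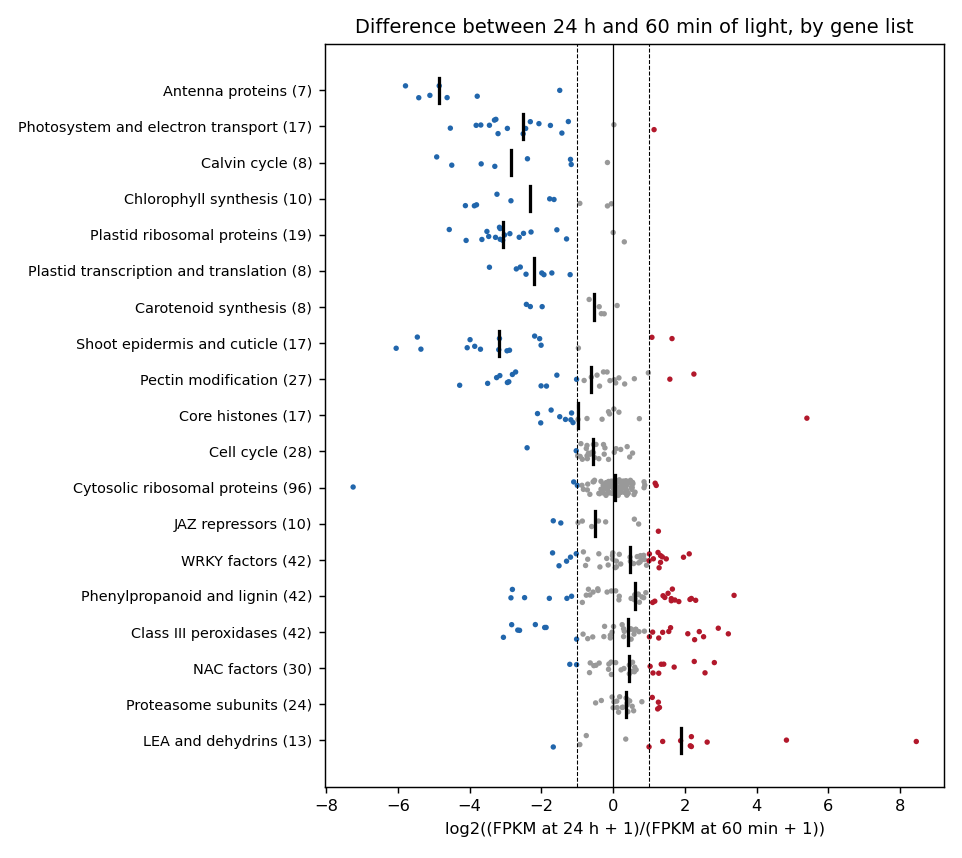
Difference between 24 h and 60 min of light for each measured member (points) of 19 gene lists, as log2((FPKM at 24 h + 1)/(FPKM at 60 min + 1)), with the number of members in brackets. Black bars are list medians, blue and red points lie at or beyond 2-fold (dashed lines). The plastid lists and the epidermis and cuticle list lie to the left, with medians down to -4.85, and LEA proteins and dehydrins to the right, with a median of 1.88.

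The regulators of light responses mostly lay within 2-fold, apart from the GLK and some GATA factors. None of 7 loci of the HY5, COP1, PIF and SPA group passed 2-fold (median -0.51), and against 30 min 1 of 7, PIF1, was lower (-0.24). HY5 (ZS01g0075000), the bZIP factor that promotes de-etiolation, stood at 3.75, 2.05, 2.26, 8.57, 12.6 and 6.78 FPKM. Its 3 light values were all above its 3 dark values. COP1 (ZS02g0659100), which marks HY5 for breakdown, stood at 5.25, 3.95, 7.87, 10.3, 16.6 and 13.5 FPKM, and its light values too were all above its dark values. Its partner SPA1-related 4 (ZS01g0583900) was at 12.4 FPKM at 60 min and 8.42 at 24 h, and DET1 (ZS01g0014700), a repressor of light responses, at 8.74 and 5.75. PIF1 (ZS04g0748700), which holds back greening in the dark, stood at 7.54, 10, 9.96, 5.63, 1.43 and 2.2 FPKM, lowest in the last 2 libraries. A PIF4 locus (ZS07g0052200) was at 5.46 and 2.25 FPKM, just short of the 2-fold rule at -0.99, and the other (ZS12g0491200) was at 1.28 and 1.01.

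Among 8 photoreceptor loci 1 was lower and none higher (median -0.39), as against 30 min (0.12). Phytochrome A (ZS03g0651500), the far-red sensor that accumulates in darkness, stood at 103, 39.5, 63.6, 37.4, 23.2 and 43.9 FPKM. Phytochrome C (ZS03g0694400) was at 5.61 FPKM at 60 min and 2.67 at 24 h, cryptochrome-1 (ZS02g0441500) at 4.25 and 2.85, cryptochrome 2 (ZS02g0501600) at 10.8 and 11.3, and cryptochrome DASH (ZS06g0584900) at 4.79 and 3.6. Thus none of the phytochrome or cryptochrome loci measured passed the rule. Phototropin-2 (ZS04g0337700) was at 10.2 and 6.28 FPKM and adagio-like protein 1 (ZS06g0628400), a blue light receptor of the clock, at 40.4 and 37. The lower locus was adagio-like protein 3 (ZS11g0484900), of the same family, which stood at 1.99, 12.7, 10.7, 12.6, 5.78 and 1.03 FPKM. It was lower against 30 min too (-2.75).

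OsGLK1 (ZS06g0309500), which in rice switches on antenna and chlorophyll synthesis genes, stood at 1.17, 0, 5.11, 0, 29.3 and 0.721 FPKM. GLK2 (ZS01g0144900) stood at 1.59, 0.0139, 2.72, 0.0559, 9.42 and 0.0668 FPKM. Both were highest at 60 min, as the antenna loci were, next highest after 5 days of darkness, and below 1 FPKM at 30 min and 24 h. Of the GLK and GATA list, 6 of 14 loci were lower and none higher (median -0.58), and against 30 min none of 12 was lower and 1 higher (0.02). The other lower members were GATA 2 (ZS10g0449100, 12.2 FPKM at 60 min and 2.69 at 24 h), GATA 12 (ZS05g0545300, 17 and 6.2), GATA 16 (ZS03g0794200, 19.2 and 7.55) and another GATA 12 locus (ZS01g0609900, 13.8 and 5.78). The remaining 8 GATA loci lay within 2-fold, between -0.63 and 0.68.

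B-box factors, many of which act beside HY5, were within 2-fold at 14 of 15 loci (median -0.09), and against 30 min 3 of 14 were lower and 1 higher (-0.49). The exception, a B-box 22 locus (ZS05g0122400), stood at 5.99, 11.4, 16.9, 3.99, 4.74 and 1.18 FPKM. It was below every dark value in all 3 light libraries and lowest at 24 h. Both further loci with that product name lay within 2-fold, ZS06g0060900 being at 11.9 FPKM at 60 min and 22.2 at 24 h and ZS01g0107100 at 1.54 and 1.62. Of 5 clock loci 2 were lower (median -0.57), and against 30 min 1 of 5 was lower (-0.05). PRR73 (ZS03g0176700), a repressor active in the day, stood at 1.75, 0.202, 0.399, 4.03, 13.5 and 1.32 FPKM, and PRR1 (ZS02g0496600), which acts in the evening, at 5.21, 13.4, 15.8, 7.7, 17.3 and 6.06 FPKM. GIGANTEA (ZS01g0082000), which links the clock to flowering, was highest of all libraries at 24 h, at 97.1 FPKM against 75.9 at 60 min and 10.1 to 57.2 in the other 4. The part of the hour of sampling in these values was not tested.

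Genes of the shoot surface were lower at 24 h in one list and mixed in broader ones. The epidermis and cuticle list, chosen after values had been seen, had 14 of 17 loci lower and 2 higher (median -3.17). Its summed level was 203 FPKM at 1 day, 47.8 and 59.8 at 3 and 5 days of darkness, 32.4 at 30 min, 345 at 60 min and 37.9 at 24 h. Against 30 min 1 of 7 measured loci was higher and none lower (0.34). In these sums the 1-day dark and 60 min libraries were high and the other 4 low, a different order from that of the antenna loci, which were low at 1 day. Of 21 matched loci, 17 reached 1 FPKM at 60 min or 24 h, but 7 at 30 min or 24 h. The filter thus tilts the sums towards the 60 min library, and they cannot show by themselves that it is high. The wax and cutin list had 4 of 10 loci lower and 3 higher (-0.51; 2 of 8 lower and 1 higher against 30 min, -0.24), from 3-ketoacyl-CoA synthase 20 (ZS10g0323300), at 9 FPKM at 60 min and 0.0269 at 24 h, to synthase 4 (ZS05g0585000), at 5.41 and 21.1. Loci that the authors' deposited table assigns to cutin, suberine and wax biosynthesis had 15 of 65 higher and 15 lower (-0.05). Against 30 min 7 of 59 were higher and 10 lower (-0.04). Those of cuticle development had 12 of 16 lower and 1 higher (-1.72), but against 30 min 1 of 9 lower and none higher (-0.02). Fewer cells of a type and less RNA per cell cannot be told apart in such bulk libraries.

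Protodermal factor 1 (ZS01g0106400), a protein of the outermost shoot cell layer, was at 17.1 FPKM at 1 day and 65.3 at 60 min and was listed at 0 in the other 4 libraries, 24 h included. ECERIFERUM 1 (ZS02g0498800), which makes wax alkanes, stood at 22.4, 0, 0.0615, 0, 49.6 and 0.148 FPKM. The fiddlehead-like locus (ZS03g0077400), an elongase of the epidermis, stood at 43.7, 4.74, 2.24, 0.713, 45.9 and 0.144 FPKM. Epidermal patterning factor-like 9 (ZS01g0758600), which in Arabidopsis promotes stomata, was at 16.6 FPKM at 60 min and 0.0476 at 24 h. The class IV homeobox factors ROC1 (ZS08g0104300) and ROC3 (ZS10g0474000), which specify epidermis, were at 18.1 and 14.7 FPKM at 60 min and at 0.472 and 0.0806 at 24 h. The higher exceptions were glycerol-3-phosphate acyltransferase 6 (ZS02g0022700), a cutin enzyme, at 1.82 and 7.82 FPKM, and a merged locus (ZS01g0014900 and ZS01g0015000) at 3.61 and 8.75.

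Lipid-transfer proteins, small secreted carriers of lipids, went both ways, with 9 of 18 lower and 7 higher (median -0.96), and against 30 min 2 of 14 lower and 4 higher (0.14). Lipid-transfer protein 1 (ZS01g0679800) stood at 332, 0, 0.805, 0.336, 430 and 0.567 FPKM, and 2 loci for protein 3 (ZS12g0022500 and ZS11g0022800) were at 297 and 257 FPKM at 60 min and at 19 and 15.7 at 24 h. The lower loci with the highest levels had the library order of the epidermis list. In the other direction, a protein 2 locus (ZS05g0568900) stood at 0, 7.41, 0, 5.15, 70.8 and 457 FPKM, and ZS04g0499000 at 0.0748, 0.306, 4.28, 5.53, 3.69 and 72.8 FPKM. Both were highest at 24 h by a wide margin. Reads of such close paralogs could fit several loci, so their single values are uncertain. Of 37 GDSL esterases, some of which polymerise cutin, 15 were lower and 3 higher (median -0.52, a list chosen afterwards), and against 30 min 3 of 28 were lower and 3 higher (0.07). The lowest of them (ZS05g0430300) stood at 30.9, 0, 0.0228, 0.0826, 88.6 and 0.225 FPKM.

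Loci with product names linked to other shoot and root tissues were given for comparison. Of 16 shoot meristem and leaf primordium loci, 4 were lower and 2 higher (median -0.23), and against 30 min 4 of 13 were lower and none higher (-0.42). The lower ones included YABBY 5 (ZS04g0646600), a factor of lateral organs, at 9, 0, 0.0638, 0.213, 13.1 and 0.0327 FPKM, and YABBY 3 (ZS10g0398900) at 2.4, 0, 0.218, 0.114, 4.34 and 0.165 FPKM. YABBY 6 (ZS12g0500700) was at 14.4 FPKM at 60 min and 1.88 to 6.08 in the other libraries. Knotted-like 1 (ZS01g0217500), a meristem factor, was in contrast at 5.22 FPKM at 60 min and at 11.9 to 30.6 elsewhere. Of 5 loci with root in the product name or named for root factors, 2 were lower and none higher (-0.73; the same counts against 30 min, -0.57). Their levels were at most 15.5 FPKM, and whether they mark root tissue was not tested. Among 18 seed storage loci 1 was measured, RAG2 (ZS07g0142500), listed at 0 at 60 min and at 1.53 FPKM at 24 h. Antenna, most epidermis and these 3 YABBY loci thus were high in the 60 min library. The shoot list as a whole was not: 4 of its 16 loci were highest there. Its summed level was 136.5 FPKM at 60 min and 105.4 at 24 h, the lowest. It was 167.9, 192.4 and 168.4 at 1, 3 and 5 days of darkness, and 184.4 at 30 min. The part of tissue carried over at sampling in the differences described was not tested. No list of markers that define the mesocotyl was used, and these groups rest on product names, so its label was not tested further.

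**Figure D4:**
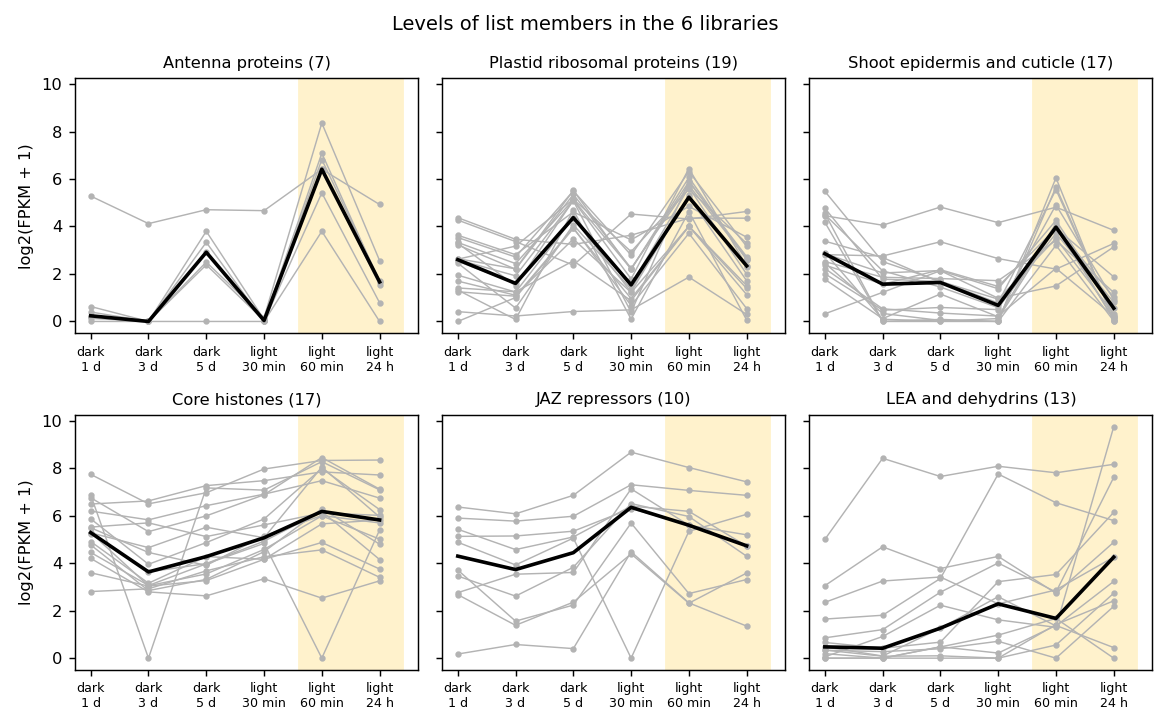
Level of each member (grey) and the median over members (black) of 6 gene lists in the 6 libraries, as log2(FPKM + 1), with the compared libraries shaded. Antenna, plastid ribosomal and epidermis loci peak at 60 min and are low at 30 min and 24 h. Core histones are less different, JAZ repressors are highest at 30 min, and LEA proteins and dehydrins are highest at 24 h.

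Proteins of desiccation tolerance were the list most often higher at 24 h, among lists of at least 5 measured loci. LEA proteins and dehydrins, hydrophilic proteins that accumulate in drying seeds and under water deficit, were higher at 8 of 13 loci and lower at 1 (median 1.88). Against 30 min 7 of 11 were higher and 1 lower (1.97), so this direction did not turn with the library used for comparison. Of the 13, 9 were highest of all libraries at 24 h. Their summed level was 47, 380, 244, 539 and 353 FPKM in the other 5 libraries and 1532 at 24 h. Of 16 matched loci, these 13 reached 1 FPKM at 60 min or 24 h, some of them at 24 h alone. The filter thus tilts this count and these sums towards the compared libraries, and they cannot show by themselves that 24 h is high.

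Dehydrin Rab16D (ZS11g0389900) stood at 0.0402, 0.882, 3.69, 2.06, 1.46 and 859 FPKM, the largest difference among the higher loci named by the rule (8.45). It alone made up more than the summed list in any other library. The group 3 LEA locus ZS05g0563700 stood at 0.81, 1.3, 5.86, 15.1, 5.89 and 195 FPKM, and ZS01g0565700 at 0.581, 0.336, 0.596, 8.33, 10.5 and 69.6 FPKM. Rab16C (ZS11g0390200), a neighbour in name of Rab16D, was at 0.468 FPKM at 60 min and 5.66 at 24 h, and was at most 0.141 elsewhere. Lea14-A (ZS05g0599400) was higher by a smaller step, at 5.65 and 28.5 FPKM, with 24.8 already at 3 days of darkness. The lower member, an 11 kDa LEA protein (ZS08g0363300), was at 2.19 FPKM at 60 min and listed at 0 at 24 h.

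Further loci with the largest higher differences were low in all libraries but the last, at most 9.02 FPKM. NADP-dependent malic enzyme (ZS01g0608000), which releases carbon dioxide from malate, stood at 0.254, 0.628, 0.623, 0.535, 0.253 and 81 FPKM. Embryonic abundant protein 1 (ZS05g0340600), also of the LEA superfamily, stood at 0.188, 0, 1.55, 3.4, 0.164 and 39.2 FPKM. The translocator protein homolog (ZS05g0058800), a membrane protein whose Arabidopsis relative is made under abscisic acid, stood at 0, 0.719, 1.09, 0.697, 1.14 and 46.1 FPKM. At all 3 the 24 h value stood over 10-fold above every other library. The outer envelope pore OEP16-2 (ZS03g0202700), known in Arabidopsis from late seed development, was at 0.291 FPKM at 60 min and 21.7 at 24 h. A putative calcium-binding protein (ZS10g0108600) was at 2.37 and 82.6, and the arsB-like transporter (ZS03g0015500) at 3.8 and 105. Glycine-rich cell wall structural protein 1 (ZS10g0351700) was at 0.359 and 47.9, the SELF-PRUNING locus (ZS02g0389600), of the family of flowering signals, at 0.424 and 25.5, and a UPF0098 family locus (ZS05g0478200) at 1.31 and 45.1. All of these were also higher against 30 min, by 3.11 to 5.74.

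Other large differences came from a low value at 60 min. Heat shock cognate 70 kDa protein 2 (ZS03g0767500), a cytosolic chaperone, stood at 54.3, 42.2, 34.4, 67.5, 2.05 and 90.6 FPKM. Putidaredoxin (ZS09g0370200), an iron-sulfur electron carrier, stood at 47.5, 27.5, 30.2, 37.3, 0.0679 and 29.7 FPKM. The pentatricopeptide repeat locus At1g60770 (ZS04g0358200), of a family that processes organelle RNA, stood at 2.73, 18.2, 31.7, 31.1, 0.612 and 37.7 FPKM. For these 3 loci the 24 h value lay within 2-fold of the 30 min value and the 60 min value was the lowest of all, with the pentatricopeptide locus low at 1 day too. Among loci with no less than 10 FPKM in each of 5 libraries, 7 dropped to at most 10% of the lowest of these at 60 min, and 13 did so at 24 h. Acetolactate synthase (ZS02g0358200), which opens branched-chain amino acid synthesis, was one such, at 19 to 59.9 FPKM elsewhere and listed at 0 at 24 h. A chloroplastic peroxiredoxin (ZS06g0544200) was at 20 to 38.6 FPKM elsewhere and listed at 0 at 60 min.

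**Figure D5:**
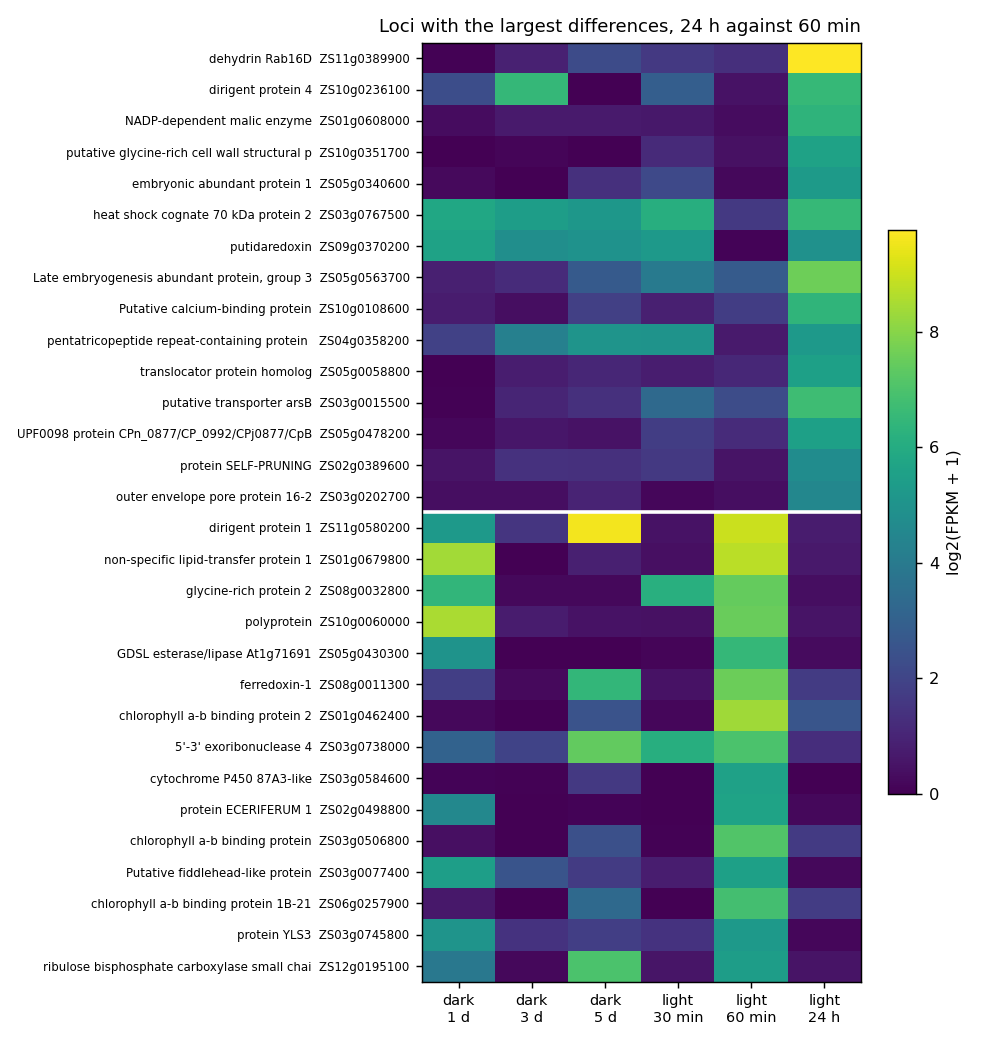
Level in the 6 libraries, as log2(FPKM + 1), of the 15 loci with the largest higher (top) and lower (bottom) differences at 24 h against 60 min among named loci with at least 10 FPKM in one of them and above 0 in both. Most top loci are high in the 24 h library and low elsewhere; among the exceptions, dirigent protein 4 is high at 3 days of darkness too, and 3 loci are low at 60 min but high in most other libraries. Most bottom loci are high at 60 min together with 1 day or 5 days of darkness.

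Dirigent proteins, which guide the coupling of phenolic radicals, appeared at both ends. Dirigent 4 (ZS10g0236100) stood at 4, 88, 0, 6.59, 0.382 and 92.3 FPKM and dirigent 1 (ZS11g0580200) at 36.6, 1.86, 764, 0.401, 503 and 0.689 FPKM. Dirigent 1 alternated between higher and low values along the series. Dirigent 4 was high only at 3 days of darkness and at 24 h, and at most 6.59 FPKM elsewhere. Glycine-rich protein 2 (ZS08g0032800) stood at 84, 0.142, 0.15, 69.7, 172 and 0.302 FPKM, and exoribonuclease 4 (ZS03g0738000), which degrades RNA from the 5′ end, at 7.38, 2.85, 167, 67.8, 126 and 1.4 FPKM. These 2 were also lower against 30 min, by -5.76 and -4.84. The polyprotein locus (ZS10g0060000) and YLS3 (ZS03g0745800) shared the order of the epidermis list, at 183 and 37.3 FPKM at 60 min and 0.417 and 0.114 at 24 h. Cytochrome P450 87A3-like (ZS03g0584600) was at 47.2 FPKM at 60 min and at most 2.06 in every other library.

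Several groups linked to stress, ageing and mineral supply had more higher than lower loci against 60 min. Against 30 min this held in only some of them. Over all loci the shares were 12.3% higher and 17.5% lower, and against 30 min 7.5% and 9.2%. Some groups below, such as glutathione transferases and pathogenesis-related proteins, had lower shares near that of all loci against 60 min. Antioxidant enzymes were higher at 7 of 24 loci and lower at 1 (median 0.43), but against 30 min at 2 of 24 and 1 (0.05). The 1-Cys peroxiredoxin B (ZS07g0543500), known from seeds, stood at 0, 39.9, 11.7, 30.4, 6.33 and 32.1 FPKM. Its 60 min value was low beside the neighbouring libraries, and so was that of 1-Cys peroxiredoxin A (ZS07g0543400), at 0.169 FPKM against 6.39 at 24 h. The lower exception, chloroplastic superoxide dismutase 1 (ZS06g0022800), stood at 30.7 and 3.79 FPKM and is a plastid protein.

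Cysteine proteases, chosen afterwards, were higher at 5 of 14 loci and lower at none (median 0.79; 4 higher and 1 lower of 14 against 30 min, 0.32). A stem bromelain-like protease (ZS09g0427100) stood at 0, 0.151, 0.181, 1.24, 5.83 and 93 FPKM. A vacuolar-processing enzyme (ZS01g0428400), which matures vacuolar proteins, stood at 6.31, 169, 105, 106, 28.7 and 117 FPKM. The bromelain-like locus was thus high at 24 h alone, and the processing enzyme low at 1 day and 60 min. Metallothionein and nicotianamine loci, also chosen afterwards, were higher at 5 of 11 and lower at none (median 0.50). Nicotianamine synthase 1 (ZS03g0203700), which makes the chelator that carries iron in the plant, stood at 285, 175, 343, 595, 87.4 and 773 FPKM, and nicotianamine aminotransferase (ZS02g0228300) at 72.2, 39.3, 19.4, 37.1, 14.4 and 92.8 FPKM. Against 30 min that list had 3 higher and 2 lower (-0.24).

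Glutathione transferases, which join glutathione to reactive compounds, were higher at 4 of 21 loci and lower at 3 (0.39), and against 30 min at 3 of 22 and 3 (-0.28). Transferase U1 (ZS03g0729500) was at 11.7 FPKM at 60 min and 95.7 at 24 h. Heat shock proteins were higher at 7 of 27 and lower at 4 (0.22), but against 30 min at 2 of 26 and 4. A heat shock cognate 70 kDa locus (ZS03g0171200) was at 0.475 and 17.2 FPKM, and was at most 2.55 elsewhere. Chitinases and other pathogenesis-related proteins were higher at 11 of 47 and lower at 8 (0.11; 7 of 44 and 2 against 30 min, 0.21), with protein 1 (ZS03g0189300) at 6.78 and 46.3 FPKM and glucan endo-1,3-beta-glucosidase 13 (ZS01g0604900) at 29.6 and 4.03.

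Nitrogen transport and assimilation loci were higher at 5 of 14 and lower at 1 (median 0.62), and against 30 min at 4 of 15 and 1 (0.51). Cytosolic glutamine synthetase 1-1 (ZS02g0623000), which takes up ammonium into glutamine, stood at 272, 123, 79.5, 200, 167 and 418 FPKM, and nitrate transporter 2.3 (ZS01g0564800) at 0.218, 0.774, 0.369, 1.69, 1.16 and 10.9 FPKM. The chloroplastic glutamine synthetase (ZS04g0783400) was the lower one, at 5.79, 2.09, 62.4, 5.71, 27.2 and 6.44 FPKM. The cytosolic and plastid isozymes thus differed in direction.

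Aquaporins, channels for water and small solutes, were split, with 4 of 18 higher and 3 lower (median 0.04), and 4 and 2 of 18 against 30 min (-0.26). TIP2-1 (ZS02g0542000), of the vacuole membrane, stood at 10.4, 41.9, 12.7, 34.5, 17.8 and 170 FPKM, and PIP1-3 (ZS02g0712500), of the plasma membrane, at 7.76, 55.7, 19.6, 30.5, 23.7 and 90 FPKM. NIP1-1 (ZS02g0152300) was lower, at 25.6 FPKM at 60 min and 1.3 at 24 h, and PIP2-6 (ZS04g0232000) too, at 104 and 16. Sucrose and starch loci had 9 of 46 higher and 9 lower (0.18), and 6 and 3 of 44 against 30 min (0.09). The small subunit of ADP-glucose pyrophosphorylase (ZS08g0378500), the entry to starch, was at 67.6 FPKM at 60 min and 5.36 at 24 h, and its large subunit (ZS03g0674600) at 11.1 and 0.325. Sugar exporters of the SWEET family lay on both sides, SWEET11 (ZS08g0623500) at 42.9 and 1.98 FPKM and SWEET14 (ZS11g0444700) at 23.3 and 96.7.

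Jasmonate loci were closer to the 60 min than to the 30 min level. Of 10 JAZ repressors (TIFY proteins), which are induced by jasmonate and block its response, 2 were lower and 1 higher against 60 min (median -0.50), but against 30 min 7 of 11 were lower and 1 higher (-1.56). TIFY 10c (ZS09g0306500) stood at 10, 5.12, 13.2, 90.2, 61.5 and 18.6 FPKM, TIFY 11c (ZS03g0077200) at 5.77, 10.6, 11.2, 139, 47.4 and 35.6 FPKM, and TIFY 9 (ZS04g0484700) at 0.128, 0.49, 0.322, 21.3, 4.02 and 1.55 FPKM. All 3 were highest at 30 min, intermediate at 60 min, and at their lowest light level at 24 h, where they still exceeded the 5-day dark level. Of them, only TIFY 10c passed 2-fold against 60 min (-1.67). TIFY 10b (ZS07g0522700), the most abundant, was at 115, 408, 260 and 171 FPKM from 5 days of darkness through 24 h. TIFY 6a (ZS08g0486200) was at 47.5 FPKM at 60 min and 25.7 at 24 h, and TIFY 6b (ZS09g0266000) at 71.7 and 25.4, both below their 5-day dark values of 39.7 and 33.4. TIFY 3 (ZS04g0778900) was at 133 and 115. TIFY 11a (ZS03g0077100) was at 5.59 and 8.93 after 50.6 at 30 min, and TIFY 11e (ZS10g0303300), the higher locus, at 3.98 and 11 after 20. TIFY 11b (ZS03g0077250) was listed at 0 at 30 min and stood at 39.6 and 65.7.

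Of 15 loci for jasmonate synthesis 4 were lower and none higher (median -0.32), and against 30 min 6 of 14 were lower and 1 higher (-0.78). WRKY factors, regulators of defence and senescence, were higher at 10 of 42 and lower at 5 (0.47), whereas against 30 min 1 of 46 was higher and 13 were lower (-0.58). WRKY28 (ZS06g0572300), chosen after its values were seen, lay on opposite sides in the 2 comparisons, at 75.7 FPKM at 30 min, 4.92 at 60 min and 10.9 at 24 h. WRKY74 (ZS09g0188800) stood at 26.9, 12.7, 9.58, 30.6, 7.93 and 37.7 FPKM. Of 18 ethylene response factors, 6 were higher and 5 lower (0.46), and against 30 min 3 and 5 (-0.25). Ethylene synthesis had 3 of 5 lower and 1 higher (-1.0; 2 of 4 lower and none higher against 30 min, -1.17), with an ACC oxidase locus (ZS05g0056600) at 0.0441, 0.355, 2.29, 30.8, 10.5 and 4.72 FPKM.

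The abscisic acid signalling list had 6 of 48 loci higher and 5 lower (median -0.24), and 2 and 6 of 48 against 30 min (-0.17). Most of its members are protein phosphatases 2C taken by product name alone, and their part in abscisic acid signalling was not tested. The higher share was near the 12.3% of all loci, and for such a broad family it says little about that hormone. Protein phosphatase 2C 59 (ZS06g0632600) stood at 1.16, 1.11, 2.22, 3.51, 5.06 and 23.4 FPKM, and the kinase SAPK3 (ZS10g0455800) at 8.17 FPKM at 60 min and 30.4 at 24 h. Phosphatase 2C 30 (ZS03g0163800) was lower, at 19.5 and 4.58. Loci that the authors' deposited table assigns to the response to abscisic acid were equally split, 37 of 221 higher and 37 lower (-0.01).

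Growth hormone lists were mixed. Of 8 gibberellin loci 3 were higher and 1 lower (median -0.12), but against 30 min 2 of 8 were higher and 3 lower (-0.40). Gibberellin 20 oxidase 1 (ZS03g0824300), a late step of synthesis, stood at 0.532, 6.17, 21.1, 4.29, 2.31 and 22.7 FPKM. Its 24 h level was near that after 5 days of darkness, with both short light exposures far below. Among gibberellin 2-oxidases, which inactivate the hormone, ZS01g0620700 stood at 1.56, 0.504, 0.69, 14.6, 7.73 and 3.69 FPKM, highest at 30 min. ZS05g0578000 was higher at 24 h, at 0.645 and 2.46. The oxidases 1 (ZS01g0112100), 2 (ZS05g0063700) and 8 (ZS04g0634900) lay within 2-fold, at no more than 2.44 FPKM in any library. Chitin-inducible gibberellin-responsive protein 2 (ZS07g0481900) stood at 3.32, 24.5, 22.2, 35.2, 0.146 and 3.92 FPKM, and was thus higher against 60 min and lower against 30 min. Gibberellin-regulated protein 12 (ZS09g0276000) was lower, at 5.11 and 0.24.

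Auxin response loci had 7 of 37 higher and 5 lower (median -0.16), and 3 and 5 of 38 against 30 min (0.03). IAA14 (ZS03g0740400), a repressor of auxin response, stood at 40.6, 1.76, 1.85, 1.41, 26.8 and 0.993 FPKM, and GH3.2 (ZS01g0628200), which conjugates auxin, at 0.542, 1.15, 1.64, 5.92, 0.645 and 6.99 FPKM. Auxin synthesis and transport had 4 of 12 higher and 1 lower (0.77), and 3 of 11 higher and none lower against 30 min (0.40). The efflux carrier component 5 locus (ZS01g0655800) stood at 0, 0.846, 1.74, 3.56, 0.497 and 8.59 FPKM, and YUCCA10 (ZS01g0183100), of auxin synthesis, at 11.6, 1.16, 2.03, 3.26, 2.27 and 10.5 FPKM. Of 5 brassinosteroid loci, the receptor BRI1-like 3 (ZS09g0147100) was higher, at 2.52 and 15.5 FPKM, with 12 at 30 min. Cytokinin loci had 5 of 19 higher and 3 lower (0.10), but none and 1 of 19 against 30 min (-0.26), the type-A response regulators ORR4 (ZS01g0793900) and ORR10 (ZS12g0043500) being at 5.04 and 2.99 FPKM at 60 min and 13.5 and 9.37 at 24 h.

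Wall loci were divided by family. Phenylpropanoid and lignin loci were higher at 14 of 42 and lower at 6 (median 0.60), and against 30 min at 7 of 41 and 6 (0.24). Larger sets from the authors' deposited table were even: phenylpropanoid biosynthesis had 48 of 248 higher and 52 lower (0.09) and the lignin biosynthetic process 16 of 72 higher and 14 lower (-0.20). Cinnamyl alcohol dehydrogenase 4 (ZS11g0550900), which makes lignin alcohols, stood at 0.101, 0.807, 0.237, 1.93, 0.48 and 14.3 FPKM, and laccase-25 (ZS12g0148800), which polymerises them, at 14.1, 9.85, 2.94, 6.57, 1.04 and 9.06 FPKM. In the other direction, cinnamyl alcohol dehydrogenase 9 (ZS03g0113800 and ZS03g0113900, merged) was at 40.9 and 4.83 FPKM, and laccase-12/13 (ZS05g0469700) at 8.1 and 0.299. Class III peroxidases, which cross-link the wall, were higher at 12 of 42 and lower at 8 (0.40), and against 30 min at 5 of 36 and 2 (0.23). Peroxidase 47 (ZS08g0019500) stood at 0.261, 0.87, 0.789, 3.46, 2.61 and 32.5 FPKM, and peroxidase A2 (ZS10g0018800) at 34.2, 6.01, 3.31, 6.74, 32.9 and 3.06 FPKM. The lower peroxidase thus had the 1-day and 60 min pattern of the epidermis list, and the higher one was highest at 24 h.

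Expansins, which loosen walls during growth, were higher at 7 of 24 loci and lower at 5 (median 0.47), and against 30 min at 4 of 25 and 1 (0.29). Expansin-B7 (ZS03g0011900) stood at 7.82, 196, 33.9, 79.9, 15 and 84.7 FPKM and expansin-A7 (ZS03g0768400) at 18.5, 3.48, 7.33, 12.2, 53.6 and 2.12 FPKM. Expansin-A7 was also lower against 30 min (-2.08). Of 11 xyloglucan endotransglucosylases, which remodel a hemicellulose of the wall, 4 were lower and 3 higher (-0.60; 1 of 10 lower and 3 higher against 30 min, 0.36), with protein 22 (ZS06g0631400) at 86.6 and 12.5 FPKM and protein 24 (ZS04g0734900) at 1.19 and 10.6. Pectin-modifying enzymes, chosen afterwards, were lower at 12 of 27 and higher at 2 (-0.61; 2 of 24 lower and 1 higher against 30 min, 0.07). Pectinesterase 68 (ZS04g0661100) stood at 18, 0.446, 3.07, 4.39, 130 and 5.76 FPKM. Of 6 cellulose synthases 2 were lower (-0.65; none against 30 min, -0.12), CESA2 (ZS03g0749500) at 38.5 and 9.45 FPKM and CESA1 (ZS05g0090500) at 202 and 101. Of the subunits that build secondary walls, CESA4 (ZS01g0613900) and CESA9 (ZS09g0283800) were within 2-fold, at 17.3 and 8.78 FPKM at 60 min and 23.7 and 12.2 at 24 h. Flavonoid synthesis had 6 of 23 higher and 6 lower (0.17), and 4 and 6 of 22 against 30 min (-0.09).

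Division loci lay mostly under their 60 min level and a little over their 30 min level. Core histones and tubulins were further under the 60 min level than cell cycle and kinesin loci. Of 28 cell cycle loci 2 were lower and none higher (median -0.55), and against 30 min none of 26 passed 2-fold in either direction (0.41). Cyclin-D6-1 (ZS07g0457600) was the larger difference, at 4.49, 1.28, 2.12, 3.42, 21.7 and 3.31 FPKM. The replication helicase subunits MCM2 (ZS11g0420900), MCM3 (ZS05g0490800), MCM4 (ZS01g0405800), MCM6 (ZS05g0156300) and MCM7 (ZS12g0434000) stood between 26.8 and 38.9 FPKM at 60 min and between 15.2 and 26.3 at 24 h. In each of these the 24 h level lay between the 30 min and the 60 min level. Of 17 core histone loci 8 were lower and 1 higher (-0.98), and against 30 min 1 of 18 was higher and 1 lower (0.28). Histone H2A.5 (ZS01g0355800) stood at 37.8, 24.2, 44.7, 32.6, 264 and 60.5 FPKM. The higher one, a centromeric H3-like histone (ZS04g0502500), was listed at 0 at 60 min and stood at 7.35 to 41.2 FPKM elsewhere. Tubulins were lower at 4 of 10 and higher at 1 (-0.80; 1 lower and none higher of 10 against 30 min, 0.27), with beta-1 (ZS01g0192600) at 349, 209, 80, 137, 204 and 52 FPKM. Kinesins were within 2-fold at 32 of 35 (-0.31; 2 of 33 higher and none lower against 30 min, 0.34), NACK2 (ZS09g0387100), a motor of cytokinesis, being the lowest at 16.1 and 0.0336 FPKM.

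Housekeeping sets mostly lay within 2-fold. Of 96 cytosolic ribosomal protein loci, 92 lay within 2-fold (median 0.06), 2 were higher and 2 lower, and against 30 min 4 of 95 were higher and none lower (0.34). A 60S L27-3 locus (ZS10g0455600) alternated between 0 in 3 libraries and 75.6 to 151 FPKM in the others, and was listed at 0 at 24 h. The cytosolic and plastid ribosomes, with medians of 0.06 and -3.08, thus stood far apart in these 2 libraries. Proteasome subunits were within 2-fold at 20 of 24 loci and higher at 4 (0.37), and against 30 min 1 of 25 was higher and 1 lower (0.17). Of 14 reference loci, 12 lay within 2-fold and 2 were higher (0.19; 1 of 14 lower and none higher against 30 min, -0.01), with elongation factor 1-alpha (ZS03g0074700) at 346 FPKM at 60 min and 396 at 24 h.

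Beside shares of 12.3% higher and 17.5% lower over all loci, MYB and NAC factors were more often higher and homeobox factors more often lower. MYB factors were higher at 16 of 58 and lower at 9 (median 0.35), but against 30 min at 5 of 54 and 4 (0.04). MYB59 (ZS01g0815200) stood at 1.04, 111, 223, 128, 8.41 and 141 FPKM, low in the 1-day and 60 min libraries alone. NAC factors were higher at 9 of 30 and lower at 2 (0.45), and against 30 min at 4 of 28 and 2 (0.05). NAC92 (ZS09g0358100), whose Arabidopsis counterpart promotes senescence, stood at 0.0201, 5.51, 4.01, 4.11, 0.449 and 9.27 FPKM. The bHLH factors had 5 of 29 higher and 6 lower (0.18; 4 and 3 of 27 against 30 min, 0.10), with bHLH137 (ZS08g0624500) at 34, 0, 0.312, 0.548, 17.5 and 0.779 FPKM. Homeobox factors were lower at 14 of 48 and higher at 6 (-0.14; 4 and 4 of 44 against 30 min, -0.07), among them the ROC loci described with the epidermis. HOX22 (ZS04g0651800) was higher, at 10.7 and 42 FPKM. Calcium sensors had 7 of 58 higher and 3 lower (0.05; 3 and 7 of 57 against 30 min, -0.17), and the kinases CIPK2 (ZS07g0577200, 97.3 and 3.9 FPKM) and CIPK31 (ZS03g0212800, 75.8 and 9.6) were the lowest of them. CIPK2 was low in the 5-day dark library as well, at 1.93 FPKM.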

How the data were processed

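Per the file headers, the authors deposited FPKM as levels for each locus of 6 poly(A) libraries. Bowtie 0.12.2 and mm8, a mouse build, are named without a role by the submitters' processing notes. The counter and the annotation were not given in the sources used here. Differences were computed with Python 3.11.15, pandas 2.3.3 and numpy 2.4.6 as log2((FPKM at 24 h + 1)/(FPKM at 60 min + 1)) for loci at 1 FPKM or more in either library. With 1 library per group no test was possible, and a difference of 1 or more counts as higher or lower. The table holds no read counts, and within 0.3% only 2.8% of 1026 loci under 0.1 FPKM shared 1 ratio between the compared libraries, so depth is unknown and no interval is given. The kit marks no strand. Gene lists (55, of which 25 patterns were trimmed after the table was opened, and 7 more added once values had been seen) are patterns on the deposited product names. Members and lists were chosen with earlier results of these data known. Named loci are the 15 largest per direction with at least 10 FPKM, a product name and no 0 in the compared libraries, the 3 highest and lowest per list with at least 5 FPKM, and, where useful, any light signalling, gibberellin or JAZ locus. Other loci named for contrast, those under 5 FPKM or listed at 0, were chosen after their values were seen. Several gene names are merged in 730 loci, and 0 names matched the reference gene table, so no coordinates or sequences are given. The calculation was tested on simulated data.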

Additional observations from a re-analysis of the deposited data

How the results depend on the processing

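Against the 60 min library 2533 loci were higher and 3598 lower, 11 lists had at least 50% of their members lower and 1 list at least 50% higher, and the 24 h library lay 2-fold above all others at 493 loci and below all others at 132. With the 30 min library in its place, an alternative chosen after seeing the data, 1481 loci were higher and 1816 lower, and 2 lists were mostly lower and 3 mostly higher. With a pseudocount of 0.1, the 24 h library was above all others at 851 loci and below at 279, and 3 lists were mostly higher. With a pseudocount of 5, 880 loci were higher and 1410 lower, 139 above all others and 41 below, and 0 lists mostly higher. With a filter of 5 FPKM, 1507 were higher and 2228 lower, 239 above all others, and 4 lists mostly higher. Leaving out loci with a 0 gave 71 below all others. The higher share of all called loci was 41.3%, and 45.4% after scaling by the median ratio of loci. The check of single loci covered 97: those with the largest differences per direction and all measured light signalling, gibberellin and JAZ loci. Other loci named above were not part of it. Among the 97, no direction reversed under the settings run against the 60 min library. Of them, 9 no longer passed 2-fold with a pseudocount of 5 and 6 newly passed with 0.1. Equal library sums, no filter, leaving out merged loci and, chosen after seeing the data, summing loci of 1 gene name left the main counts within 1.5 times. No paired analysis was possible because each group holds 1 library and the labels give no shared numbering. Unknown depth limits loci near 1 FPKM most.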
